A study of Homo sapiens with 12 samples.

Results

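The BCL2 family decides whether the outer mitochondrial membrane stays closed or is opened to release cytochrome c, and its multidomain genes are the subject here. These are the survival genes BCL2, BCL2L1, BCL2L2 and MCL1, the relatives BCL2L12 and BCL2L13, and the effector genes BAX, BAK1 and BOK. They were taken as every probe that the array's annotation gives to 1 of these 9 symbols, which were 18 of the 48803 probes on the array. U2OS, a human osteosarcoma cell line, had been transfected with a scramble siRNA (siCtl) or with a mix of 3 independent siRNAs against the corepressor NCoR (siNCOR) or against the corepressor SMRT (siSMRT), and kept in complete medium for 2 days. Each siRNA group was then left untreated (labelled no-treatment, called vehicle in a legend of the study) or given 100 µM cisplatin (CDDP), a drug that crosslinks DNA, for 6 h, and total RNA was hybridised to one-colour bead arrays. The 6 groups hold 2 biological replicates each, 12 arrays in all, every group having been transfected with siRNA.

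In healthy cells the survival proteins BCL2, BCL-XL (from BCL2L1), BCL-W (from BCL2L2) and MCL1 hold BAX and BAK in check. BAX and BAK oligomerise in the outer membrane once they are freed or activated by BH3-only proteins, the damage sensors of the family, and cytochrome c then leaves the mitochondria and starts the caspase cascade. BOK is a related effector that is less dependent on the survival proteins, while BCL2L12 and BCL2L13 carry BCL2 homology and have less typical roles, BCL2L13 being known as a receptor for the removal of mitochondria. DNA damage is known to act on this balance through p53, of which BAX is a textbook target.

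Raw array medians lay between 54.0 and 65.3 intensity units and 27.0% to 31.4% of probes exceeded 100, the signal floor named in the study's methods. Values below are log2 of background-corrected, quantile-normalized signal, and a probe was tested where its uncorrected signal exceeded that floor in both arrays of at least 1 group, which held for 14801 probes. Fold changes, standard errors (SE, from 2 against 2 arrays unless stated) and Benjamini-Hochberg adjusted p come from 1 limma fit over all of these, and a probe is called changed at an adjusted p under 0.05. Of the mesenchymal and osteoblast-lineage markers VIM, CD44, COL1A1 and SPARC were above the floor, RUNX2 and ALPL close to it, and FN1, COL1A2, BGLAP, SP7 and IBSP below it on every array. RUNX2 fell by 1.26 with CDDP over the siRNA groups, while SPARC rose by 0.51 and ALPL by 0.19. In untreated cells RUNX2 was lower with siNCOR (-0.53) and SPARC with siSMRT (-0.64) than with siCtl. ALPL went the other way there, being higher with siSMRT than with siCtl (0.48, SE 0.13), at a dim signal of 93.5 to 153. RUNX2 ran from 51.4 to 125 and passed the floor only through untreated groups where it was high, so both its differences were in part selected. Epithelial EPCAM was measured at 375 to 858, higher with siNCOR (0.65) and with siSMRT (0.61) than with siCtl on the log2 scale in untreated cells. With CDDP it was higher by 0.31 over the siRNA groups. By group its rise was called in siNCOR cells only (0.46), with 0.23 in siCtl and 0.24 in siSMRT cells. CDH1, KRT5, KRT14, PTPRC, CD3E and CDH5 stayed below the floor and endothelial PECAM1 lay at 88.6 to 111. The part of these marker changes in the results below was not tested.

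Of the 18 probes 14 passed the floor, and all 9 genes have at least 1 among them. The 13 of these that belong to genes other than BCL2 exceeded 100 on every array. The BCL2 probe ILMN_2246956 exceeded it on 4 arrays only, those of untreated siNCOR and siSMRT cells, so that it was tested because of the groups in which it was high. The 4 probes that did not pass were ILMN_1701120 and ILMN_2363250 for the shorter BCL2 transcript NM_000657 (49.2 to 59.6 and 45.3 to 59.1), ILMN_1801119 for the main BCL2 transcript NM_000633 (57.8 to 91.2) and ILMN_2258383 for BAX (53.9 to 62.8), beside a median of 57.3 over all probes. Because the arrays were made from bulk RNA, fewer cells with a transcript and less transcript per cell cannot be told apart.

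The survival genes BCL2L1 and BCL2L2 fell with CDDP in every siRNA group, by 0.58 to 1.07 on the log2 scale, and BCL2, which was tested because of its high untreated arrays, was lower by 0.92 to 1.31. MCL1, BCL2L12 and BCL2L13 were not called in siCtl or siNCOR cells. Among the effectors BAK1 was higher with CDDP when the siRNA groups were averaged (0.38, SE 0.08), and no BAX or BOK probe passed. In siCtl cells 4 of 14 member probes were lower and 0 were higher, where 34.2% of all probes were called (17.6% lower and 16.7% higher). In siNCOR cells the counts were also 4 lower and 0 higher (38% of all probes called, 19.1% lower and 18.9% higher), and in siSMRT cells 5 were lower and 1 was higher (40% of all probes called, 19.6% lower and 20.4% higher). For the average over the siRNA groups 5 were lower and 1 was higher, beside 28.3% and 34% of all probes, 62.3% together. Without the BCL2 probe the lower counts were 3, 3, 4 and 4 of 13 for siCtl, siNCOR, siSMRT and their average. The member probes had a median log2 fold change of -0.01 with siCtl, 0.0011 with siNCOR and 0.01 with siSMRT, against 0.04, 0.04 and 0.05 over all probes.

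**Figure D1:**
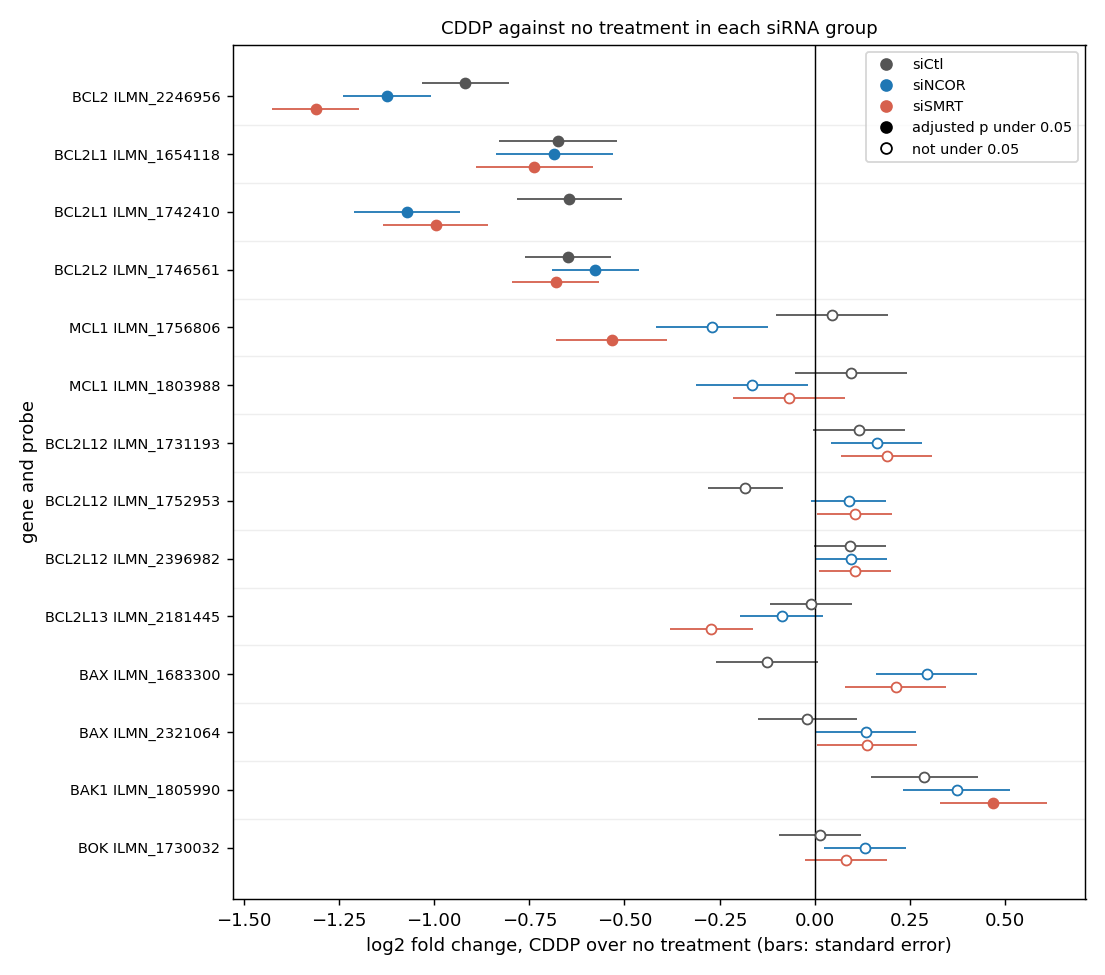
Log2 fold change of CDDP over no treatment (x axis) for each of the 14 tested probes (y axis) in siCtl, siNCOR and siSMRT cells, with bars of 1 standard error and filled points where the adjusted p is under 0.05. The points of BCL2, of both BCL2L1 probes and of BCL2L2 lie between -1.31 and -0.58, and those of BAK1 between 0.29 and 0.47.

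BCL2, the founding survival gene, was lower with CDDP in every siRNA group, its signal being dim throughout. Its log2 values were 6.16 and 6.23 in untreated siCtl cells and 5.30 and 5.25 with CDDP. In siNCOR cells they were 6.41 and 6.54 untreated and 5.39 and 5.31 with CDDP, and in siSMRT cells 6.57 and 6.91 untreated and 5.40 and 5.46 with CDDP. All 6 CDDP arrays lay below all 6 untreated arrays, and the untreated arrays were spread more widely (6.16 to 6.91) than the CDDP arrays (5.25 to 5.46). The fold change for siCtl was -0.92 (SE 0.11, limma adjusted p = 9.11e-05), that for siNCOR -1.12 (SE 0.11, 2.03e-05) and that for siSMRT -1.31 (SE 0.11, 7.00e-06). For siNCOR and siSMRT these compare the very groups through which the probe entered the test, and with every probe tested and no floor its adjusted p was 0.000176, 2.15e-05 and 4.28e-06 in the same order. The second probe of the same BCL2 transcript, ILMN_1801119, followed it over the 12 arrays (r = 0.95 as a description), with uncorrected signals of 82.5 to 91.2 in untreated cells and 57.8 to 66.5 with CDDP. When every probe was tested without a floor it fell by 0.81, 0.73 and 0.87 in siCtl, siNCOR and siSMRT cells (adjusted p = 0.000492, 0.00124 and 0.000247). With CDDP both probes were near the median signal of all probes, and the size of the fall depended on the background correction: with a normexp offset of 50 in place of 16 the BCL2 values were -0.56, -0.72 and -0.87.

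BCL2L1 encodes BCL-XL, a survival protein of the outer membrane, and is read by 2 probes of transcript NM_138578. The brighter, ILMN_1654118, gave 11.80 and 12.18 in untreated siCtl cells and 11.12 and 11.52 with CDDP, 12.11 and 12.28 against 11.45 and 11.57 in siNCOR cells, and 12.14 and 12.23 against 11.33 and 11.56 in siSMRT cells. The CDDP arrays were all below the untreated arrays, the closest being 11.57 (siNCOR with CDDP) and 11.80 (untreated siCtl). Its fold change was -0.67 (SE 0.15, limma adjusted p = 0.00529) in siCtl, -0.68 (SE 0.15, 0.00468) in siNCOR and -0.74 (SE 0.15, 0.00287) in siSMRT cells. With replicate numbers as a block the adjusted p was 0.000163, 0.000142 and 7.76e-05 in the same order. The 2 same-numbered siCtl pairs gave -0.68 and -0.66. In siCtl cells the call was lost without CDDP replicate 1 (adjusted p = 0.0597) and without untreated replicate 2 (0.0592). The dimmer BCL2L1 probe, ILMN_1742410, gave 8.53 and 8.86 untreated and 7.90 and 8.21 with CDDP in siCtl cells, 8.99 and 9.13 against 8.06 and 7.91 in siNCOR cells, and 9.0 and 8.94 against 7.88 and 8.07 in siSMRT cells. Here too no CDDP array reached an untreated array, and the fold changes were -0.64 (SE 0.14), -1.07 (SE 0.14) and -1.0 (SE 0.14), each with an adjusted p under 0.05 (0.00359, 0.000114 and 0.000188). Both BCL2L1 probes ran together over the 12 arrays (r = 0.96).

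BCL2L2 encodes BCL-W and has 1 probe, ILMN_1746561. Its log2 values were 8.67 and 8.59 in untreated siCtl cells and 7.98 and 7.98 with CDDP. They were 8.66 and 8.43 against 7.98 and 7.96 in siNCOR cells, and 8.81 and 8.59 against 7.91 and 8.13 in siSMRT cells. The 6 CDDP arrays again lay below the 6 untreated arrays. The fold change was -0.65 (SE 0.11, limma adjusted p = 0.00101), -0.58 (SE 0.11, 0.00214) and -0.68 (SE 0.11, 0.00067) in siCtl, siNCOR and siSMRT cells. The ranges of CDDP and untreated arrays thus did not overlap for 4 member probes, those of BCL2, BCL2L1 and BCL2L2, as was the case for 25.5% of the 14801 probes. For BCL2 this was in part selected, since its probe passed the floor through untreated arrays only.

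**Figure D2:**
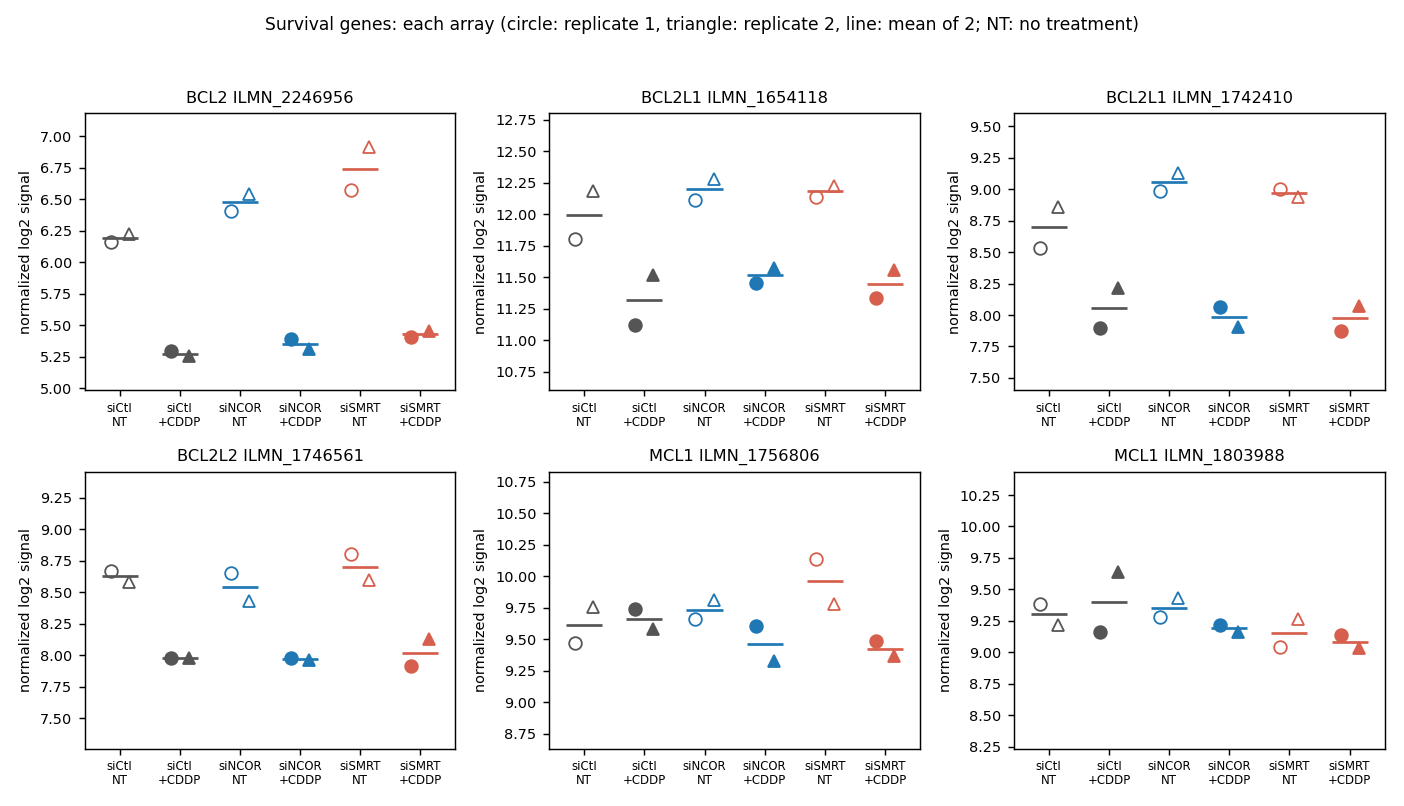
Normalized log2 signal (y axis, each panel spanning the same number of log2 units) of the survival genes BCL2, BCL2L1, BCL2L2 and MCL1 in each array, by siRNA and treatment (x axis, NT for no treatment), with replicate 1 as a circle, replicate 2 as a triangle and the mean of both as a line. For BCL2, both BCL2L1 probes and BCL2L2 every filled CDDP point lies below every open untreated point, and for both MCL1 probes they overlap. The BCL2 probe passed the floor only through untreated siNCOR and siSMRT arrays, so its separation was in part selected.

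The 250 bases before the annotated start of BCL2 and BCL2L1 are shown because the probes of these genes fell together. They are from RefSeq (GRCh38.p14), read 5′ to 3′ on the strand of the gene, which is minus for both. The BCL2 window is chr18:63319770-63320019, and the BCL2L1 windows are chr20:31723964-31724213 and chr20:31722869-31723118. Capitals mark matches on either strand to the motifs CACGTG (known as E-box), GGGCGG (the SP1 type of box), CCAAT (known as such) and TATAAA (the TATA box). An AP-1 site (TGAGTCA), a cAMP response element (TGACGTCA), an ETS site (CCGGAAGT) and the p53 half-site were searched and marked in the same way.
BCL2: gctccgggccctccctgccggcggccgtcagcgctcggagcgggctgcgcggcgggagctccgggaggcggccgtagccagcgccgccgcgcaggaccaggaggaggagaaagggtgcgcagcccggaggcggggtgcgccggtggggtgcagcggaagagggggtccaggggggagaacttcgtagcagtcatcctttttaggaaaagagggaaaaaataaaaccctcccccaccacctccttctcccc
BCL2L1 upstream start: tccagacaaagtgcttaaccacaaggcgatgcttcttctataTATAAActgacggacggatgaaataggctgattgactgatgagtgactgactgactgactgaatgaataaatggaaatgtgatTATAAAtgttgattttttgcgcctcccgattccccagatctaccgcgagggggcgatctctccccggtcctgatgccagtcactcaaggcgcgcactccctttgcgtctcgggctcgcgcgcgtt
BCL2L1 downstream start: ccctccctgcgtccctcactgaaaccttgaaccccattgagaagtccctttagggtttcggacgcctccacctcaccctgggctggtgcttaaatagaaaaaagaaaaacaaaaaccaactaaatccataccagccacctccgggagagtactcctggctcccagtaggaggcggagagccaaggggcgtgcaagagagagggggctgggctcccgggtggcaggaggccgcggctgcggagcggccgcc
Of the motifs searched, the upstream BCL2L1 window holds TATAAA, beginning 208 and 125 bases before the start, as do 10.7% of the 35116 promoters of the table. The BCL2 window and the downstream BCL2L1 window hold none of these motifs.

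MCL1, a survival protein that is turned over quickly, was read by 2 probes of transcript NM_021960 that did not run together over the 12 arrays (r = -0.06). For ILMN_1756806 the log2 values were 9.47 and 9.75 untreated and 9.74 and 9.58 with CDDP in siCtl cells, 9.66 and 9.81 against 9.61 and 9.32 in siNCOR cells, and 10.14 and 9.78 against 9.48 and 9.37 in siSMRT cells. In siNCOR and siSMRT cells both CDDP arrays were below both untreated arrays, in siCtl cells they overlapped, and siSMRT untreated replicate 1 was the highest of all 12. The fold change of ILMN_1756806 was 0.05 (SE 0.15, limma adjusted p = 0.839) in siCtl, -0.27 (SE 0.15, 0.166) in siNCOR and -0.53 (SE 0.15, 0.0129) in siSMRT cells. The siSMRT call was lost without untreated replicate 1 (adjusted p = 0.132) or without CDDP replicate 2 (0.0822). Over the siRNA groups ILMN_1756806 averaged -0.25 (SE 0.08, 0.0207), a call lost when every probe was tested (0.055) and when any 1 of 6 arrays was left out (0.0537 to 0.0659). The other MCL1 probe, ILMN_1803988, ranged from 9.04 to 9.43 in untreated and from 9.03 to 9.64 in CDDP arrays, with fold changes of 0.10, -0.16 and -0.07 (SE 0.15 each), none of them called.

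BCL2L12 has 3 tested probes and BCL2L13 has 1, and none was called in any siRNA group. The BCL2L12 fold changes ran from -0.18 to 0.19 (SE 0.09 to 0.12). Its probe ILMN_1731193 ranged from 7.93 to 8.21 in untreated and from 8.13 to 8.37 in CDDP arrays and averaged 0.16 (SE 0.07, limma adjusted p = 0.0673, and 0.0321 with replicate numbers as a block). BCL2L13 was 10.12 and 10.07 untreated and 10.04 and 10.13 with CDDP in siCtl cells, 10.20 and 10.23 against 10.19 and 10.06 in siNCOR cells, and 10.18 and 9.98 against 9.92 and 9.70 in siSMRT cells. The lowest 2 BCL2L13 values of the 12 were those of siSMRT cells with CDDP. There the fold change was -0.27 (SE 0.11, adjusted p = 0.0646, and 0.0373 with replicate numbers as a block), against -0.01 in siCtl and -0.09 in siNCOR cells.

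BAK1, an effector resident in the outer mitochondrial membrane, gave 8.01 and 8.0 in untreated siCtl cells and 8.20 and 8.39 with CDDP. It gave 7.76 and 8.25 against 8.46 and 8.30 in siNCOR cells, and 8.02 and 7.92 against 8.40 and 8.47 in siSMRT cells. Within each siRNA group both CDDP arrays were above both untreated arrays, and over all arrays the ranges met only where untreated siNCOR replicate 2 (8.25) exceeded siCtl CDDP replicate 1 (8.20). The fold change was 0.29 (SE 0.14, limma adjusted p = 0.134) in siCtl, 0.37 (SE 0.14, 0.0534, and 0.0328 with replicate numbers as a block) in siNCOR and 0.47 (SE 0.14, 0.0191) in siSMRT cells. The rise over the siRNA groups (0.38, SE 0.08, 0.00155) was 0.22 with an adjusted p of 0.062 under median scaling of the arrays, which also took the siNCOR value to 0.15. The siSMRT call of BAK1 was lost without any 1 of its 4 arrays (adjusted p = 0.053 to 0.0965), under median scaling (0.078) and when every probe was tested (0.0586).

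BAX, an effector that moves from the cytosol to mitochondria, was read by 2 tested probes at different signals. The dimmer, ILMN_1683300 (transcript NM_004324), gave 7.39 and 7.44 untreated and 7.17 and 7.40 with CDDP in siCtl cells, 7.24 and 7.45 against 7.44 and 7.83 in siNCOR cells, and 7.79 and 7.77 against 7.94 and 8.05 in siSMRT cells. The 4 highest of the 12 values include 3 from siSMRT cells, and siNCOR replicate 2 with CDDP is the other. CDDP fold changes of ILMN_1683300 were -0.12 (SE 0.13, limma adjusted p = 0.502) in siCtl, 0.29 (SE 0.13, 0.101, and 0.0342 with replicate numbers as a block) in siNCOR and 0.21 (SE 0.13, 0.221) in siSMRT cells. The brighter BAX probe, ILMN_2321064 (transcript NM_138764), ranged from 11.44 to 11.83 in untreated and from 11.56 to 11.81 in CDDP arrays, with fold changes of -0.02, 0.14 and 0.14 (SE 0.13 each), none called. BOK ranged from 8.30 to 8.47 untreated and from 8.30 to 8.72 with CDDP, with fold changes of 0.01, 0.13 and 0.08 (SE 0.11 each), none called.

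**Figure D3:**
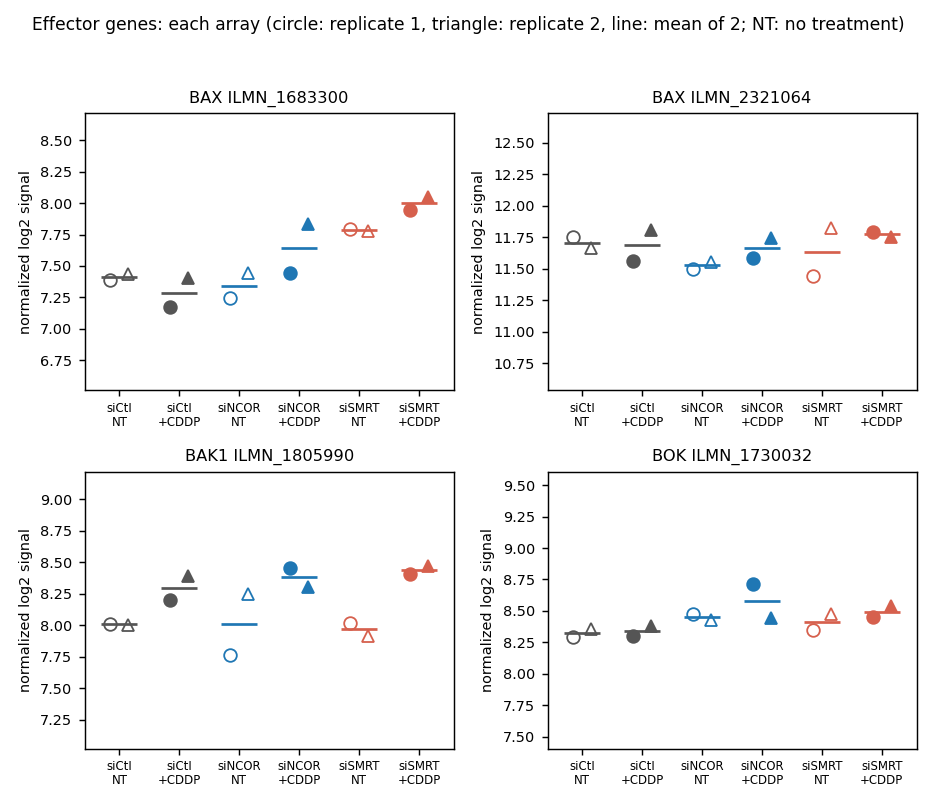
Normalized log2 signal (y axis, each panel spanning the same number of log2 units) of the effector genes BAX (2 probes), BAK1 and BOK in each array, by siRNA and treatment (x axis, NT for no treatment), with replicate 1 as a circle, replicate 2 as a triangle and the mean of both as a line. BAK1 is higher with CDDP in each siRNA group, and BAX ILMN_1683300 is at 7.77 to 8.05 in the siSMRT arrays and at 7.17 to 7.44 in the siCtl arrays.

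The promoters of BAX and BAK1 are shown, marked in the same way, because these are the effector genes with a called difference in 1 comparison or more. They are chr19:48954625-48954874 on the plus strand for BAX and chr6:33580277-33580526 on the minus strand for BAK1 (RefSeq, GRCh38.p14).
BAX: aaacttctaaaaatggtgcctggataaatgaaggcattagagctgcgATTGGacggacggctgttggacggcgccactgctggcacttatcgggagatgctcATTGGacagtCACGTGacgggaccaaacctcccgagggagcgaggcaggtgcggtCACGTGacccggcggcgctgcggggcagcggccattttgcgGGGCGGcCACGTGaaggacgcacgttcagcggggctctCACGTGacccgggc
BAK1: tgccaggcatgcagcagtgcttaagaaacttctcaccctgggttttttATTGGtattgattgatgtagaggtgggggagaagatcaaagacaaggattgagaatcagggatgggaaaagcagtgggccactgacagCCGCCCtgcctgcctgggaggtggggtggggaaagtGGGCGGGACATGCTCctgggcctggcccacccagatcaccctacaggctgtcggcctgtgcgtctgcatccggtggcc
The BAX window holds CACGTG beginning 138, 93, 45 and 14 bases before the start, a motif that 6.34% of all promoters in the table hold. It also has CCAAT on the other strand at 203 and 148 bases, as 32% of promoters do, and GGGCGG at 52 bases, as 42.6% do. The BAK1 window has CCAAT at 202 bases and GGGCGG at 114 bases on the other strand, and GGGCGG at 78 bases on the strand of the gene. It also has a match to the p53 half-site at 73 bases that overlaps the GGGCGG at 78 bases, the half-site being found in 5.57% of promoters. Of the 9 genes 7 have promoters in this table, in 11 windows.

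In untreated cells the BCL2 signal was higher with siSMRT than with siCtl, while no member passed for siNCOR. Untreated siSMRT cells are 1 of the groups through which the BCL2 probe passed the floor, so the probe was in part selected for this difference. The BCL2 arrays were 6.57 and 6.91 with siSMRT against 6.16 and 6.23 with siCtl, without overlap, a difference of 0.55 (SE 0.11, limma adjusted p = 0.0089). With every probe tested and no floor the adjusted p was 0.0398. It was the single member called of 14, where 14.4% of all probes were called (6.61% higher and 7.83% lower). The call was lost without siCtl untreated replicate 1 (adjusted p = 0.0688) or without siSMRT untreated replicate 2 (0.079), and the second BCL2 probe, ILMN_1801119, differed by 0.10 (adjusted p = 0.858 over every probe). BAX ILMN_1683300 was 0.37 higher with siSMRT (SE 0.13, 0.0857, and 0.0227 with replicate numbers as a block), its 2 siSMRT values of 7.79 and 7.77 lying above 7.39 and 7.44 with siCtl. That BAX difference was 0.24 under median scaling. The other BAX probe differed by -0.07 (SE 0.13). For siNCOR against siCtl limma called 0 of 14, where 4.47% of all probes were called (2.51% higher and 1.96% lower). An unadjusted p under 0.05 was found for 3 of the 14, and for 2713 of all 14801 probes. The largest siNCOR differences were those of BCL2L1 ILMN_1742410 (0.36, SE 0.14, adjusted p = 0.186) and BCL2 (0.28, SE 0.11, 0.214).

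With CDDP the order of BAX ILMN_1683300 was siCtl at 7.17 and 7.40, siNCOR at 7.44 and 7.83, and siSMRT at 7.94 and 8.05, with no overlap between neighbours, although neither neighbouring pair of groups was called different. SMRT knock-down gave a BAX signal 0.71 higher than siCtl on the log2 scale (SE 0.13, limma adjusted p = 0.00518), the single member called of 14 beside 15.9% of all probes (7.41% higher and 8.44% lower). It was called whichever 1 of the 12 arrays was left out (adjusted p at most 0.0485). The brighter BAX probe, ILMN_2321064, differed by 0.09 (SE 0.13, 0.701), so that the 2 BAX probes did not show the same difference. For siNCOR against siCtl with CDDP 0 of 14 were called by limma (5.39% of all probes, 2.79% higher and 2.6% lower). There 2 members had an unadjusted p under 0.05, beside 3104 of all 14801 probes. Of these 2, BAX ILMN_1683300 was 0.35 higher (SE 0.13, adjusted p = 0.154, and 0.0463 with replicate numbers as a block). BCL2 differed from siCtl by 0.16 with siSMRT (SE 0.11, 0.388) and by 0.08 with siNCOR (SE 0.11, 0.759) under CDDP.

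**Figure D4:**
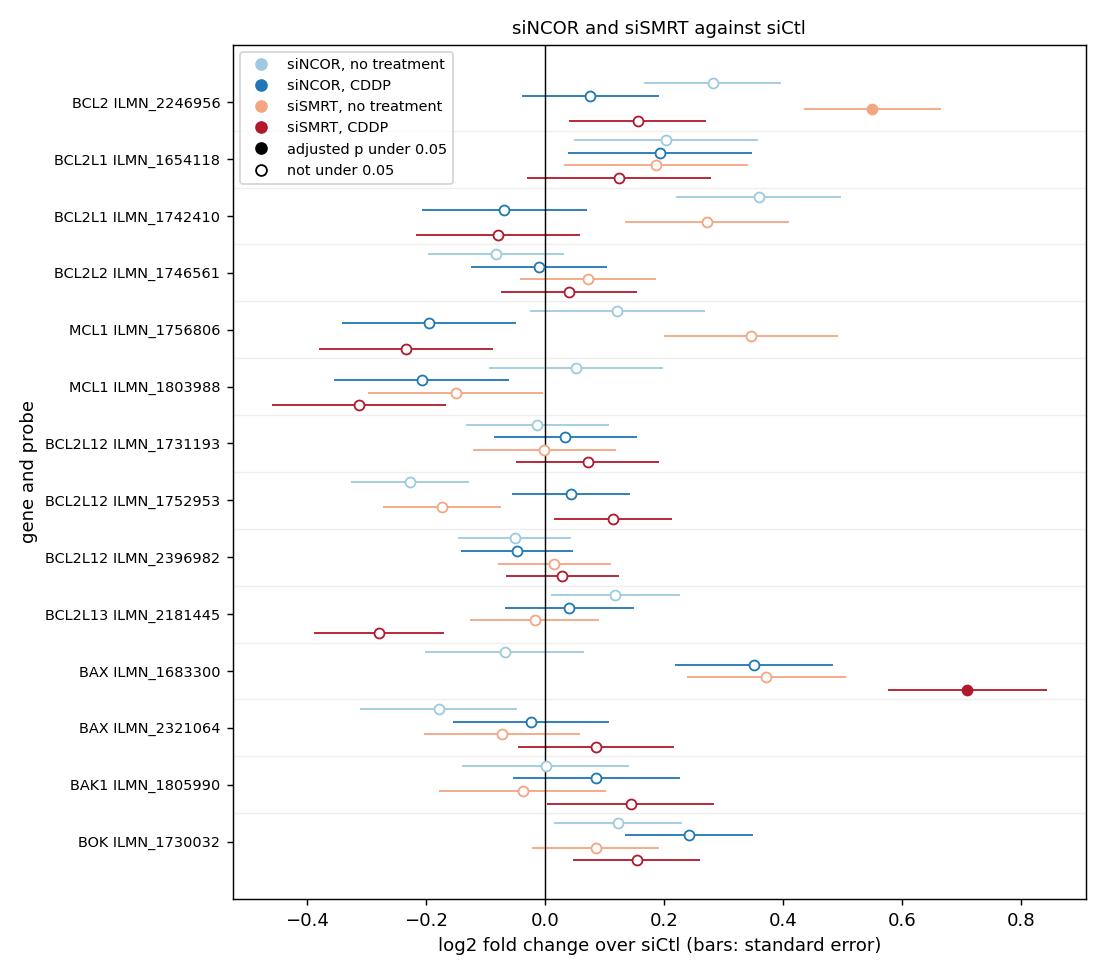
Log2 fold change of siNCOR and siSMRT over siCtl (x axis) for each of the 14 tested probes (y axis), in untreated cells and with CDDP, with bars of 1 standard error and filled points where the adjusted p is under 0.05. The filled points are BCL2 for untreated siSMRT cells (0.55) and BAX ILMN_1683300 for siSMRT cells with CDDP (0.71).

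Set directly against each other in untreated cells, siSMRT and siNCOR had BAX ILMN_1683300 as the single member called, higher with siSMRT by 0.44 (SE 0.13, limma adjusted p = 0.0408), 1 of 14 probes beside 17.3% of all probes (7.76% higher and 9.51% lower). This call was lost under median scaling (adjusted p = 0.191), when every probe was tested (0.136) and without any 1 of 8 arrays (0.0516 to 0.23). With CDDP 0 of 14 were called by limma, where 15.2% of all probes were (7.23% higher and 8.01% lower). An unadjusted p under 0.05 was found for 4276 of all 14801 probes and for 2 members. These were BAX ILMN_1683300 (0.36, SE 0.13, adjusted p = 0.094, and 0.0262 with replicate numbers as a block) and BCL2L13 (-0.32, SE 0.11, 0.0678, and 0.0344 with the block).

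Whether the corepressors alter the response of these genes to CDDP was tested as the difference between CDDP fold changes. No member passed: limma called 0 of 14 probes, and 0% of the 14801 probes tested, for siNCOR against siCtl, siSMRT against siCtl and siSMRT against siNCOR. The unadjusted p was under 0.05 for 2, 2 and 0 members, beside 648, 1244 and 503 of the 14801 probes. The lowest adjusted p of these 42 member differences was 0.514, for MCL1 ILMN_1756806, whose response differed by -0.58 between siSMRT and siCtl (SE 0.21, 95% interval -1.03 to -0.13). The BCL2 response differed by -0.39 between siSMRT and siCtl (SE 0.16, interval -0.75 to -0.04, adjusted p = 0.553) and by -0.21 between siNCOR and siCtl (SE 0.16, interval -0.56 to 0.15). For BCL2L1 ILMN_1654118 the differences were -0.01 (interval -0.48 to 0.47) and -0.06 (-0.54 to 0.41), for BCL2L2 0.07 (-0.28 to 0.42) and -0.03 (-0.38 to 0.32), and for BAX ILMN_1683300 0.42 (0.01 to 0.83) and 0.34 (-0.07 to 0.75). Intervals of this width leave differences in either direction possible for most members.

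The BH3-only genes, which set the multidomain proteins in motion, are counted here over the average of the siRNA groups, where 34% of all probes were higher and 28.3% lower, each gene being read from its brightest probe. Of 8 listed genes 6 were tested, 5 were higher and 0 lower, with a median of 0.27 against 0.05 over all probes. Taken by siRNA group, 2 (siCtl), 4 (siNCOR) and 5 (siSMRT) of the 6 were higher, beside 16.7%, 18.9% and 20.4% of all probes. For the difference in CDDP response from siCtl cells, limma called 0 of the 6 in siNCOR and 0 in siSMRT cells. Of smallest p over the average were PMAIP1 (NOXA, which binds MCL1, 1.80, SE 0.08), then BIK (0.79, SE 0.06), BID (0.28, SE 0.06) and BAD (0.25, SE 0.05). Among genes of cytochrome c release, the apoptosome and its inhibitors, 3 of 11 tested were higher and 2 lower, a smaller share than among all probes in either direction. CYCS, cytochrome c itself, was higher by 0.68 (SE 0.09) and the nuclease ENDOG by 0.50 (SE 0.10), whereas the apoptosome scaffold APAF1 fell by 0.58 (SE 0.08). CYCS and ENDOG were dim, at 77.1 to 161 and 116 to 209, and CYCS was not above the floor on every array. Of 7 tested genes for the turnover of MCL1 and its relatives 5 were lower and 1 was higher on average. By group 2, 3 and 2 were lower and 0, 1 and 1 higher in siCtl, siNCOR and siSMRT cells. Of all probes 17.6%, 19.1% and 19.6% were lower there, and 16.7%, 18.9% and 20.4% higher. Among the 5, BTRC and MARCHF5 were dim (52.0 to 116 and 65.9 to 122) and passed the floor only through groups where they were high. Their falls were therefore in part selected. CUL5, a cullin, fell in each group (-0.57, -0.66 and -0.38). BTRC, a substrate receptor of a ubiquitin ligase that was dim at 52.0 to 116, was -0.91 and -0.93 in siCtl and siNCOR cells and -0.27 in siSMRT cells, the last not called (limma adjusted p = 0.194). FBXW7, another such receptor, was called in siSMRT cells only (-0.68), with -0.11 in siCtl and -0.25 in siNCOR cells. HUWE1, an MCL1 ligase, was 0.07 in siCtl cells (0.763) and higher in siNCOR (0.57) and siSMRT (0.55) cells. Tested directly, the CDDP responses of these genes in siNCOR or siSMRT cells did not pass as different from that in siCtl cells (adjusted p = 0.469 to 0.999). Of 5 tested other relatives the chaperone partner BAG3 rose by 0.65 (SE 0.06) and 4 did not pass.

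The genes whose log2 values ran most like each called member over the 12 arrays were ranked as a description. For BCL2 they were ZNF544 (r = 0.98), UBAP1 and COX10, for BCL2L1 ILMN_1654118 ADAM19 (r = 0.99), ZHX2 and RAP1GAP2, and for BCL2L2 NUP35 (r = 0.98), PCNX1 and JRK. For MCL1 ILMN_1756806 they were AMD1 (r = 0.94), SPTLC1 and ZNF668, and for BAK1 AP2A1 (r = 0.97), ALDH5A1 and MON1A. The arrays share the CDDP and untreated groups, so any pair of genes that changed with CDDP shares that much.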

How the data were processed

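RNA of 12 U2OS samples (6 groups of 2) was measured. The authors deposited linear probe intensity per array, which the submitters' processing notes trace to BeadStudio, with 48803 probes and no normalization between arrays. Their processed table of intensity (Corgon and multi-loess normalization, per the study's methods) correlates with the exported log2 values at 0.9996 or more and was an alternative. Of the probes, 27578 have 1 gene in the platform annotation, 13 several and 21212 none. Detection p and control probes were not used here.

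Intensities were corrected with normexp (offset 16), quantile normalized and log2 transformed in limma 3.58.1 (R 4.3.3). Probes with uncorrected, quantile-normalized signal above 100 in both arrays of a group were kept (14801). One limma model with 1 coefficient per group (6 residual degrees of freedom) gave all comparisons, with Benjamini-Hochberg adjustment over all kept probes at 0.05. The test was also run on simulated arrays that vary independently, so that check does not cover the shared deviations described below. Replicate arrays correlate at 0.9939 to 0.9957 and share 0 identical raw values. The study describes the replicates as biological, with RNA from independent experiments. Same-numbered arrays deviate together in all 15 pairs of groups (correlation 0.21 to 0.41), so the numbers pair the samples, and a fit with the replicate number as a block was an alternative.

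Every member probe is accounted for, and up to 4 genes of smallest p for CDDP are named from each of 4 lists (BH3-only, other BCL2 relatives, release and apoptosome, turnover), each read from its brightest probe. For each member called over the siRNA groups the 3 genes of highest Pearson correlation are named. Members and lists were chosen with earlier results of these data known. Plots and promoter searches used Python (3.11.15) with matplotlib 3.10.9, pandas 2.3.3 and numpy 2.4.6. Levels of the siRNA targets are not reported here.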

Additional observations from a re-analysis of the deposited data

How the results depend on the processing

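Counts of member probes called in siCtl, siNCOR and siSMRT cells with CDDP stayed within 1.5 times the reported ones under every alternative. With 1 array left out they were 3 to 4, 4 to 5 and 4 to 6, and 5 to 7 over the siRNA groups. The counts for single siRNA contrasts rest on few probes and moved more. With the replicate number as a block, siSMRT against siCtl untreated had 2 calls (1 reported), siNCOR against siCtl with CDDP 1 (0 reported) and siSMRT against siNCOR with CDDP 2 (0 reported, and 1 with the authors' processed values). Over all 14801 probes the block raised the calls from 2137 to 3212, from 798 to 1684 and from 2256 to 3274 in the same order. With 1 probe per gene, siSMRT against siCtl with CDDP had 0 (1 reported), since the brighter BAX probe then stands for BAX, and siSMRT against siNCOR untreated had 0, as it also had under median scaling and without the floor (1 reported). Leaving out 1 array gave 0 to 0 for siNCOR and 0 to 2 for siSMRT against siCtl untreated, 0 to 1 and 1 to 2 with CDDP, 0 to 1 in both comparisons of siSMRT with siNCOR, and 0 to 0 for the differences between CDDP responses. Under median scaling the median log2 fold change of all probes reached 0.17 (0.05 as reported), and BAX ILMN_1683300 with CDDP, over the siRNA groups, turned from 0.13 to -0.053, neither being called. The cause of these changes was not tested. Beyond the calls given beside their results the replicate block changed no other. BCL2 was the member closest to background, so its fold changes are the least certain in size.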
